A study of Mus musculus with 4 samples.

Results

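Cluster 46 is a group of inhibitory neurons of the mouse posterior hindbrain that the authors' annotation names after *Col18a1* and *Gpc3*. Its members were the nuclei that passed the authors' quality filter and carried this cluster label in their deposited table, 161 of 12539 neurons (1.28%) and of 39461 kept nuclei in all. It ranked 12 by number of nuclei among 134 neuronal clusters, and it was compared with the other 12378 neurons of the same libraries. Single-nucleus RNA sequencing had been performed on the portion of the hindbrain that holds the area postrema and the nucleus of the solitary tract, with 2 libraries per group, control and AgRP-Gq;POMC-Gi. The study asked which hindbrain neurons respond when AgRP neurons, which drive feeding, are activated while POMC neurons, which restrain it, are silenced.

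AgRP-Gq;POMC-Gi mice were AgRP-IRES-Cre+/-;hM3DGqfl/-;POMC-Dre+/-;hM4DGifl/-, so that Cre in AgRP neurons releases an excitatory designer receptor and Dre in POMC neurons an inhibitory one, both behind the CAG promoter at the *Rosa26* locus. The labels call the control mice wild type. The study's methods describe them as offspring of the same cross that carry both silent receptor alleles and neither recombinase (AgRP-IRES-Cre-/-;hM3DGqfl/-;POMC-Dre-/-;hM4DGifl/-). All mice were on a C57BL/6 background, received clozapine *N*-oxide (CNO), the ligand of both receptors, at 3 mg per kg 1 h before the tissue was taken without access to food, were of both sexes and were 12 to 20 weeks old. The methods state that samples of a condition were pooled (n = 2 mice per group) and not which mice entered which library. The p-values below therefore measure the spread between libraries. How much of it is technical and how much lies between mice is not known. Libraries of a group differed in sex-linked RNA, as given below.

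Inhibitory neurons release GABA, glycine or both. GABA is made by the glutamate decarboxylases encoded by *Gad1* and *Gad2*, glycine is taken back into the terminal by the transporter encoded by *Slc6a5*, and the transporter encoded by *Slc32a1* loads either into vesicles. *Col18a1* encodes the chain of collagen XVIII, a basement membrane collagen that bears heparan sulfate, and *Gpc3* encodes glypican 3, a heparan sulfate proteoglycan anchored to the cell surface. *Rorb* encodes an orphan nuclear receptor that marks inhibitory interneurons in the dorsal horn of the spinal cord, where *Pax2*, *Pax8*, *Lhx1*, *Lhx5* and *Gbx1* are also factors of the inhibitory lineage.

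The 250 bases upstream of the RefSeq starts of both name-giving genes are shown because these genes define the cluster, in the GRCm38.p6 build, on the minus strand and read 5′ to 3′. Capitals would mark AGGTCA, the half-site that receptors of the ROR family bind, on either strand, and neither window holds it. The window of *Col18a1* is chr10:77166531-77166780 and that of *Gpc3* is chrX:52613975-52614224.
*Col18a1*: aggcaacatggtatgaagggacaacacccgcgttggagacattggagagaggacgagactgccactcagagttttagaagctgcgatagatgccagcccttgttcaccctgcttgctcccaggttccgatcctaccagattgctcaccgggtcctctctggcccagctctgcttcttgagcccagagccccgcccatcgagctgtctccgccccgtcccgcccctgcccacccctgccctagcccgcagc
*Gpc3*: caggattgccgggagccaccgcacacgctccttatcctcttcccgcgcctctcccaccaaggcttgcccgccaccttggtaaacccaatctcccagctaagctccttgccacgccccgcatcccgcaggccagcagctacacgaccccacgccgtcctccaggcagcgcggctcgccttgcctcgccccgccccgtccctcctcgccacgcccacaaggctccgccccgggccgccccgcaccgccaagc
The motif occurs in 14.0% of the 32851 windows of this length in the RefSeq table and in 5 of 24 windows of the 17 leading genes that have one, namely those of *Syt6*, *Greb1*, *Hdac9* and *Rai14*.

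The libraries held 34 and 17 nuclei of the cluster in control replicates 1 and 2 and 39 and 71 in AgRP-Gq;POMC-Gi replicates 1 and 2, with 452001, 194090, 438011 and 850757 UMIs. Precision was thus lowest in control replicate 2. The median nucleus of the cluster had 13000, 11860, 10159 and 11712 UMIs in the 4 libraries, against 9580, 8719, 8248 and 8459 in other neurons. The cluster was higher in 4 of 4 libraries (exact two-sided sign test, p = 0.125, the smallest that 4 libraries allow). No barcode of the cluster occurred in more than 1 library, whereas 23 to 41 barcodes were shared by each pair of libraries over all nuclei.

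Levels below are UMIs of a gene summed over the cluster's nuclei of a library, scaled to 1000000 UMIs of the same nuclei (CPM). Where no library is named, the mean ± SD over all 4 is given. All 4 neuronal markers listed were detected. *Rbfox3*, which encodes the nuclear antigen NeuN, stood at 515 against 252 CPM in other neurons, and *Snap25*, a gene of synaptic vesicle fusion, was found in 99.4% of nuclei. *Syt1*, the calcium sensor of release, stood at 1814 against 1341 CPM, and *Elavl4*, a neuronal RNA-binding protein, was lower at 135 against 315 CPM. The summed level of 6 oligodendrocyte markers was 150 to 246 CPM, against 151 to 305 CPM in other neurons, and 6 astrocyte markers summed to 12.9 to 19.9 CPM. *Ttr*, the defining gene of choroid plexus cells, stood at 0, 1448, 0 and 464 CPM in the cluster and was found in 48.6% of oligodendrocyte nuclei, and it was higher in both replicate 2 libraries than in both replicate 1 libraries. *Xist*, the RNA that coats the silenced X chromosome in females, stood at 834, 268, 384 and 3.53 CPM and the Y-linked *Uty* at 4.42, 134, 98.2 and 172 CPM. Sex-linked RNA thus differed between libraries of the same group. Of 6 listed sex-linked genes, 3 were higher and 2 lower in AgRP-Gq;POMC-Gi at an unadjusted p under 0.05 by edgeR, with 0 at an adjusted p under 0.05. Of all 12155 genes tested in the cluster, 475 (3.91%) had an unadjusted p under 0.05 by edgeR. Sex-linked RNA thus also differed between the groups more often than other genes. The part of sex in the group comparisons below was not tested.

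The cluster took up 1.38% of neurons in control replicate 1 (95% Clopper-Pearson interval 0.955% to 1.92%) and 0.621% in control replicate 2 (0.362% to 0.993%). In AgRP-Gq;POMC-Gi replicates 1 and 2 it took up 1.06% (0.751% to 1.44%) and 1.95% (1.53% to 2.46%). The groups overlapped, as control replicate 1 lay above AgRP-Gq;POMC-Gi replicate 1. By edgeR's quasi-likelihood test over the nuclei of 134 neuronal clusters, the log2 fold change of AgRP-Gq;POMC-Gi over control was 0.59 (SE 0.56, adjusted p = 0.709). With a library left out in turn it lay between 0.09 and 1.27. No cluster was called (0 of 134, 0.0%, with 8 at an unadjusted p under 0.05, and 0 by DESeq2). A difference in the number of these neurons was not detectable with these libraries.

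**Figure D1:**
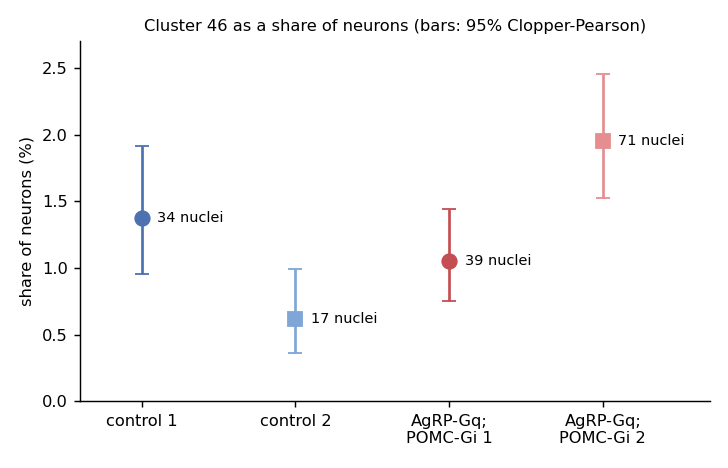
Share of neurons that belonged to cluster 46 in each of the 4 libraries (y axis, %), with 95% Clopper-Pearson intervals that cover counting error only. The lowest share, 0.621%, and the second highest, 1.38%, both came from control libraries.

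The leading genes of the cluster were taken by size alone, as the 20 with the highest log2 ratio to other neurons (with 10 CPM added to both) among genes detected in 20% or more of its nuclei and higher in all 4 libraries. These genes were used to form the cluster, so their values are a description without a test. Of 7231 genes so detected, 1173 (16.2%) were higher than in other neurons in all 4 libraries. Over the 10083 genes found in at least 10% of nuclei the median log2 ratio was -0.02, 183 genes (1.81%) were at least 2-fold higher and 130 (1.29%) at least 2-fold lower. Counts of genes at least 2-fold higher or lower are on this scale throughout, and the added 10 CPM understates the difference of low genes. The minimum of 10% refers to nuclei of the cluster. It leaves out genes nearly absent from them, such as *Slc17a6* at 4.97% of nuclei. Counts of lower genes are therefore too small and are not to be weighed against counts of higher genes.

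*Rorb* (chr19:18930605-19111196) led the list. Control replicates 1 and 2 stood at 743 and 629 CPM and AgRP-Gq;POMC-Gi replicates 1 and 2 at 776 and 815 CPM, against 45.6 ± 6.08 CPM in other neurons (log2 ratio 3.76). It was found in 96.9% of nuclei of the cluster and in 11.8% of other neurons. The level of the cluster ranked 3 among the 134 neuronal clusters. *Sorcs3*, *Pdzd2* and *Hdac9* were found in 98.1%, 97.5% and 96.9% of its nuclei, and also in 54.2%, 40.9% and 76.4% of other neurons.

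*Col18a1* (chr10:77052178-77166548), whose upstream window is printed above, stood at 117, 191, 185 and 226 CPM in control replicates 1 and 2 and AgRP-Gq;POMC-Gi replicates 1 and 2, against 15.0 ± 3.20 CPM in other neurons (log2 ratio 2.93). Its level in the cluster was the highest of all neuronal clusters, with cluster 153 next at 135 CPM. *Gpc3* (chrX:52272426-52613950) stood at 142, 211, 196 and 229 CPM in the same order, against 26.9 ± 4.46 CPM (log2 ratio 2.47), and ranked 3 behind clusters 171, at 365 CPM, and 125. Control replicate 1 was the lowest library for both genes. *Col18a1* was found in 76.4% of nuclei of the cluster and 9.08% of other neurons, and *Gpc3* in 75.2% and 11.9%. After every nucleus was thinned to 2000 UMIs these shares were 29.8% and 2.92% for *Col18a1* and 26.1% and 4.65% for *Gpc3*, with 0 nuclei of the cluster and 166 other neurons too shallow to thin. Both markers were detected together in 98 of 161 nuclei (60.9%, 95% Clopper-Pearson interval 52.9% to 68.5%) and at least one in 146, as a description, since the cluster was named after them. They were not particular to the cluster, which held 9.86% of all neurons with a *Col18a1* UMI and 7.57% of those with a *Gpc3* UMI.

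Among the other leading genes, *Phactr2*, a phosphatase and actin regulator, stood at 396 ± 53.5 CPM against 49.2 ± 1.59 CPM. *Rai14*, an actin-binding ankyrin repeat protein, and *Nrgn*, the calmodulin-binding neurogranin, stood at 82.8 ± 24.1 and 83.2 ± 16.6 CPM, against 5.72 and 6.27 CPM, and both had the highest mean of all neuronal clusters here. For *Nrgn* cluster 162, at 81.0 ± 41.5 CPM, did not differ beyond the spread. For *Rai14* the libraries of cluster 162, at 27.9 to 95.3 CPM, overlapped those of cluster 46, at 54.8 to 110 CPM. *Mical2*, which oxidizes actin, stood at 255 ± 23.4 against 57.2 CPM.

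*Pde3a*, a phosphodiesterase of cyclic nucleotides, stood at 249 ± 26.6 CPM against 43.8 CPM, and *Gulp1*, an engulfment adaptor, at 312 ± 5.15 against 60.3 CPM, with hardly any spread between libraries. The synaptotagmin *Syt6*, the sorting receptor *Sorcs3*, the PDZ protein *Pdzd2*, the metalloproteinase *Adamts19* and the histone deacetylase *Hdac9* had log2 ratios of 1.91 to 2.32. *A630012P03Rik* (chrX:52575843-52619047) lies on the opposite strand of the first part of *Gpc3* and stood at 80.7 ± 20.2 against 11.3 CPM. Its level ranked 4 among neuronal clusters, with cluster 171 at 191 CPM. In clusters 125, 162 and 55, described below, it stood at 127, 57.7 and 15.1 CPM and *Gpc3* at 305, 74.0 and 39.6 CPM. Both genes were thus higher than in other neurons, but the pair was not particular to the cluster. *Greb1*, an oestrogen-regulated gene, and *Ntsr2* are close neighbours on chromosome 12. The last gene inside the list was *Sorcs3*, with a log2 ratio of 1.91, and the first outside it was *Gm14582*, also at 1.91.

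**Figure D2:**
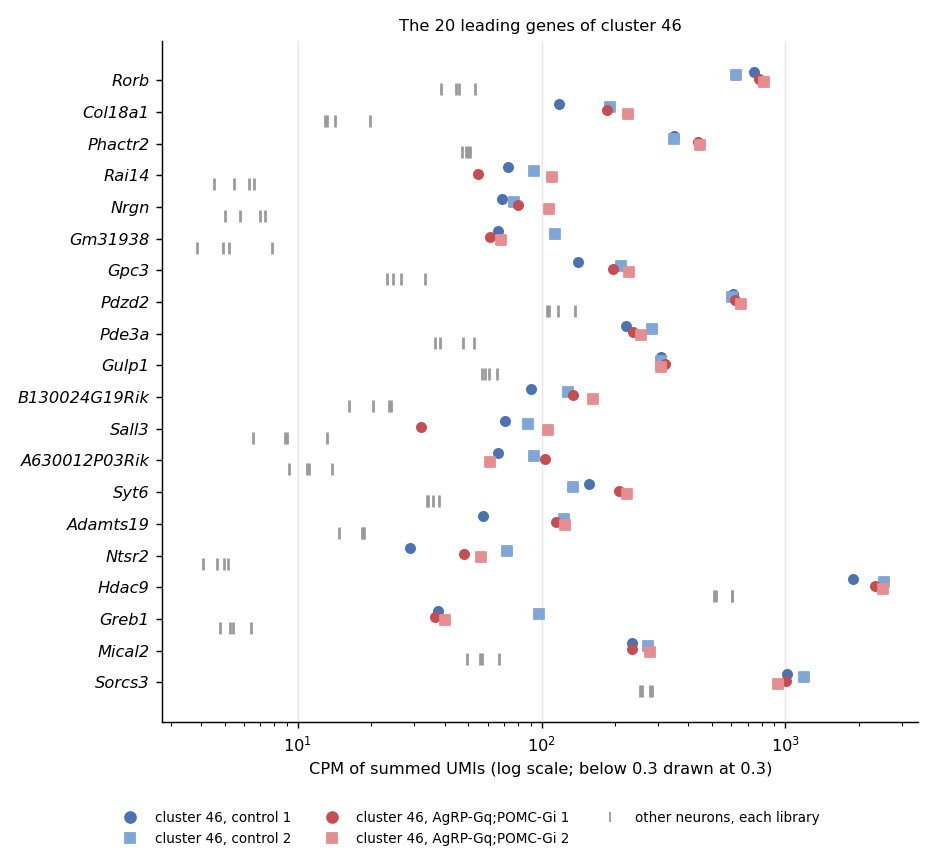
CPM (x axis, log scale) of the 20 leading genes in cluster 46, with 1 coloured point per library, and in the other neurons of each library (grey ticks). For *Rorb* the 4 libraries sat between 629 and 815 CPM, and for every gene all 4 points lay to the right of all grey ticks.

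The transmitter genes described neurons equipped for both GABA and glycine. *Slc6a5* (chr7:49910146-49963856), the neuronal glycine transporter, stood at 166, 247, 196 and 240 CPM in the libraries in the same order, against 81.3 ± 6.70 CPM in other neurons. *Slc32a1* stood at 50.9, 113, 54.8 and 64.6 CPM against 26.6 ± 0.972 CPM. For both genes every library of the cluster was above every library of other neurons. *Gad1*, at 60.2 ± 29.2 against 50.5 CPM, and *Gad2*, at 86.8 ± 26.8 against 95.5 CPM, were near the level of other neurons. Control replicate 1 was the lowest library for both (19.9 and 48.7 CPM). Other neurons pool GABA neurons with glutamate neurons, so a level near theirs is not the level of GABA neurons. *Gad1* and *Gad2* stood at 190 and 178 CPM in the inhibitory cluster 31. In the most like clusters described below, 125, 162 and 55, *Gad1* stood at 220, 55.6 and 62.6 CPM and *Gad2* at 149, 59.5 and 85.8 CPM. *Slc6a5* stood at 149, 150 and 150 CPM there and *Slc32a1* at 67.0, 71.8 and 44.3 CPM. In cluster 31 these 2 genes stood at 233 and 66.4 CPM, against means of 212 and 70.9 CPM in cluster 46. Their excess over other neurons was thus not particular to the cluster.

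*Slc6a5* was found in 132 of 161 nuclei (82.0%), against 32.1% of other neurons and 1.39% of oligodendrocytes, whose median depth was 2460 UMIs. *Gad1* or *Gad2* was found in 117 nuclei (72.7%), and 99 (61.5%, 53.5% to 69.0%) held *Slc6a5* together with either. In 33 nuclei *Slc6a5* was found without *Gad1* and *Gad2*, in 18 the reverse, and in 11 neither. At 2000 UMIs per nucleus *Slc6a5* was found in 29.8% of nuclei of the cluster and 12.7% of other neurons, so the difference was present at equal depth. *Gad2*, found in 57.1% and 38.3% of nuclei, was found in 12.4% and 16.5% after thinning, and its higher share before thinning went with the greater depth of the cluster.

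Genes of glutamate and acetylcholine transmission gave few UMIs. *Slc17a6*, which loads glutamate into vesicles and stood at 77.0 CPM in other neurons, stood at 11.1, 0, 6.85 and 1.18 CPM. Any of *Slc17a6*, *Slc17a7* and *Slc17a8* was found in 10 of 161 nuclei (6.21%). The share was 14.7% and 5.88% in control replicates 1 and 2 and 5.13% and 2.82% in AgRP-Gq;POMC-Gi replicates 1 and 2. *Slc17a6* alone was found in 4.97% of nuclei against 3.49% of oligodendrocytes, a background level. *Chat*, which makes acetylcholine, and *Dbh*, which makes noradrenaline, had a UMI in 0 of 161 nuclei, which allows up to 1.86% of nuclei with a UMI. *Slc18a2*, which loads monoamines into vesicles, was found in 25.5% of nuclei, at 28.2 CPM, a log2 ratio to other neurons of 0.21. The glycine receptor *Glra1*, at 442 ± 32.7 against 226 CPM, and *Abat*, which breaks down GABA, at 235 ± 25.6 against 134 CPM, were higher in 4 of 4 libraries.

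Lineage factors differed from other neurons in both directions. Of the 32 of 93 listed factors found in at least 10% of nuclei, 6 (18.8%) were at least 2-fold higher and 3 (9.38%) at least 2-fold lower, against 1.81% and 1.29% of all genes. The list was chosen with earlier results of these data known and the cluster was formed from expression, so these counts are a description. Beside *Rorb* and *Sall3*, the higher ones were *Nr2f2* at 72.3 ± 15.8 CPM against 12.1 CPM, *Pax8* at 92.9 ± 36.2 against 23.6 CPM, *Lhx1* at 41.2 ± 15.5 against 14.4 CPM and *Maf* at 94.6 ± 20.3 against 42.2 CPM. *Gbx1*, at 22.5 ± 5.66 against 7.63 CPM, and *Lhx5*, at 12.6 ± 2.18 against 6.30 CPM, were higher in 4 of 4 libraries, and *Pax2*, at 59.7, 103, 79.9 and 107 against a mean of 59.9 CPM, in 3 of 4. *Pax2* and *Gbx1* were higher still in the 3 most like clusters described below, at 157 to 284 CPM and 38.1 to 98.7 CPM. In these clusters, 125, 162 and 55, *Nr2f2* stood at 71.1, 142 and 3.19 CPM and *Lhx1* at 61.6, 42.8 and 71.6 CPM. *Sall3* stood at 152, 125 and 38.9 CPM there, against 74.0 CPM in cluster 46. *Maf*, at 29.0, 43.3 and 22.7 CPM, was lower there. *Pax8* stood at 39.9, 50.1 and 86.8 CPM there, and cluster 55, with an SD of 40.3 CPM, did not differ from cluster 46 beyond the spread. *Nr2f2*, *Lhx1*, *Sall3* and *Pax8* were thus not particular to the cluster.

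The lower factors were *Meis1* at 24.3, 5.15, 27.4 and 16.5 CPM against 207 CPM, *Zfhx3* at 106, 61.8, 27.4 and 37.6 CPM against 492 CPM, and *Meis2* at 68.6, 227, 100 and 59.9 CPM against 357 CPM. Each library of the cluster was below other neurons for all 3. Of the 11 *Hox* genes found in at least 10% of nuclei, 0 were 2-fold higher or lower with the 10 CPM added. *Hoxb6*, at 25.4 ± 9.03 against 8.34 CPM, and *Hoxb8*, at 9.57 ± 3.56 against 1.95 CPM, are low genes whose plain ratios were 3.05 and 4.90.

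**Figure D3:**
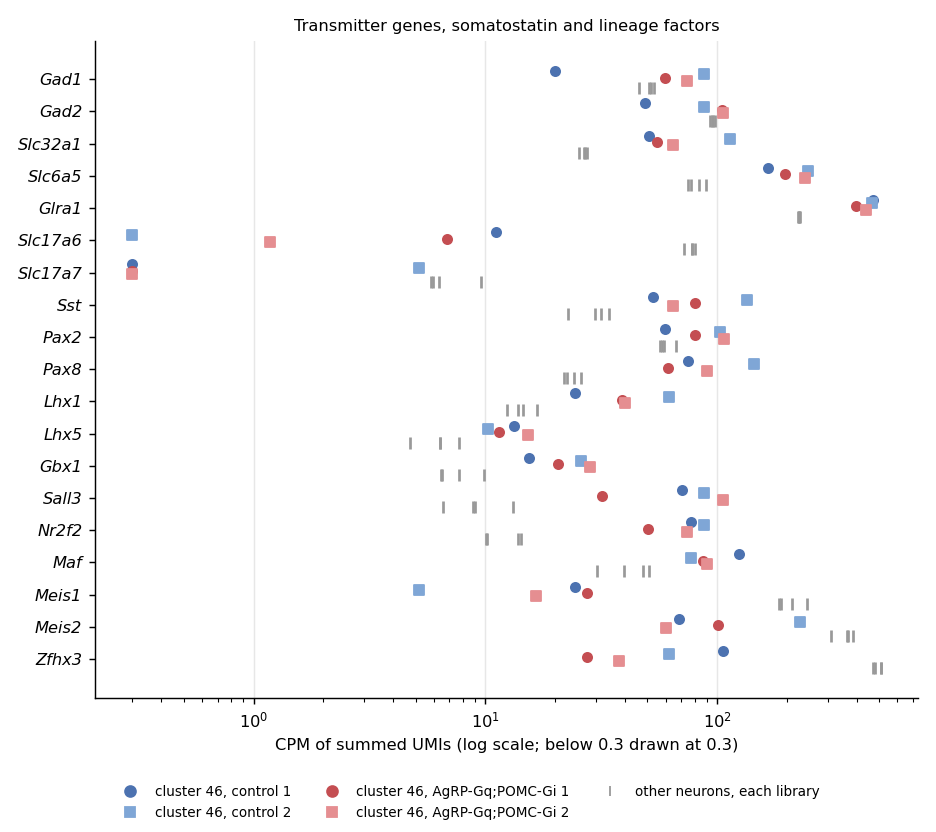
CPM (x axis, log scale, with values under 0.3 drawn at 0.3) of transmitter genes, *Sst* and lineage factors in cluster 46, with 1 coloured point per library, and in the other neurons of each library (grey ticks). *Slc6a5*, at 166 to 247 CPM, lay above the grey ticks and *Slc17a6*, at 0 to 11.1 CPM, below them.

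Among neuropeptides, 3 of 42 listed genes were found in at least 10% of nuclei. *Sst*, which encodes somatostatin, stood at 53.1, 134, 79.9 and 64.6 CPM against 29.5 ± 4.86 CPM and was found in 49 nuclei (30.4%). With the same UMIs spread over nuclei by depth alone, 55.2% would be expected to hold one. *Sst* was found in 16.1% of other neurons and 5.77% of oligodendrocytes, and after thinning to 2000 UMIs in 6.83% of nuclei of the cluster and 5.66% of other neurons, so its share was close to that of other neurons at equal depth. *Nppc*, the C-type natriuretic peptide, stood at 26.7 against 14.1 CPM. *Agrp* UMIs, at 74.9 ± 7.60 CPM, were found in 54.7% of nuclei, but they were as common in other neurons, at 88.2 CPM and 50.7%, and were no feature of the cluster. *Penk*, the enkephalin gene, was lower, at 15.6 ± 7.07 against 43.3 CPM.

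Of 54 listed receptors for feeding signals, 11 were found in at least 10% of nuclei. *Ntsr2*, a neurotensin receptor, was at least 2-fold higher with the 10 CPM added, at 28.8, 72.1, 47.9 and 56.4 CPM against 4.72 ± 0.484 CPM, and its level ranked 2 of 134 clusters. *Cckbr*, the gastrin and cholecystokinin B receptor, was also higher in 4 of 4 libraries, at 21.6 ± 8.36 against 6.62 CPM. In clusters 125, 162 and 55, described below, *Cckbr* stood at 2.31, 26.1 and 12.7 CPM. Most melanocortin and NPY receptor genes gave few UMIs in the cluster and in other neurons. *Mc4r*, the melanocortin 4 receptor, gave 1 UMI in all (2.25 CPM in other neurons) and *Npy1r* gave 2 (7.62 CPM). *Mc3r* and *Npy2r*, at 0.0514 and 3.53 CPM in other neurons, had a UMI in 0 of 161 nuclei, which allows up to 1.86% of nuclei with a UMI and sets no limit on nuclei that express the gene. *Npy5r*, another NPY receptor, was found in 16.1% of nuclei, at 14.9 against 11.2 CPM, and *Lepr*, the leptin receptor, in 8.07%, at 10.2 against 17.8 CPM.

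Receptors for amines and fast transmitters were higher in *Adra1b*, an α1 adrenoceptor, at 61.6 ± 17.2 against 19.2 CPM, and in *Htr4*, a serotonin receptor coupled to cyclic AMP, at 149 ± 23.8 against 60.3 CPM. These were the 2 of 10 detected amine and acetylcholine receptor genes that were at least 2-fold higher, and none was 2-fold lower. In clusters 125, 162 and 55, described below, *Adra1b* stood at 26.9, 46.1 and 24.9 CPM and *Htr4* at 32.1, 201 and 35.4 CPM. Among 22 detected glutamate receptor genes 1 was at least 2-fold higher and 2 at least 2-fold lower. *Gria3*, an AMPA receptor subunit, was the higher one at 1031 ± 89.2 against 454 CPM. *Grm8*, a metabotropic receptor, was among the lower ones at 132 ± 62.2 against 496 CPM. Of 12 detected GABA receptor genes, 1 was at least 2-fold higher, *Gabra4* at 61.0 against 25.2 CPM, and 1 at least 2-fold lower.

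Because both markers concern heparan sulfate, the 83 listed genes of collagens, proteoglycans and heparan sulfate enzymes were examined, of which 38 were found in at least 10% of nuclei. Of these 6 (15.8%) were at least 2-fold higher and 2 (5.26%) at least 2-fold lower, against 1.81% and 1.29% of all genes. The list was taken up because of the 2 markers, which are among the 6, so these counts are a description. Besides the markers, 4 were at least 2-fold higher. *Gpc4*, which neighbours *Gpc3* on the X chromosome, stood at 19.9, 46.4, 20.5 and 30.6 CPM against 2.62 ± 0.659 CPM, and *Gpc5*, another glypican, at 2145 ± 520 against 916 CPM. *Hs3st3b1*, at 50.4 ± 26.1 against 9.14 CPM, and *Hs3st3a1*, at 29.1 ± 9.48 against 6.68 CPM, encode closely related 3-O-sulfotransferases of heparan sulfate and lie near each other on chromosome 11. *Ndst3*, an enzyme that starts sulfation of the chains, was lower at 40.3 ± 17.7 against 154 CPM. The collagen gene *Col25a1* was also lower, at 40.6 ± 49.9 against 146 CPM.

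Several genes induced by neuronal activity were above other neurons in every library of both groups, as a description of how the cluster differed and not of the treatment. *Egr1* stood at 44.2 and 15.5 CPM in control and at 22.8 and 25.9 CPM in AgRP-Gq;POMC-Gi replicates 1 and 2, against 5.44 ± 1.00 CPM in other neurons. *Egr3* stood at 24.3, 15.5, 9.13 and 10.6 CPM against 0.511 ± 0.128 CPM, in 11.8% of nuclei against 0.461% of other neurons. Its mean was the highest of all neuronal clusters, but cluster 162, at 11.4 ± 9.85 CPM, did not differ beyond the spread. *Egr1* and *Egr3* encode immediate early zinc finger factors. *1700016P03Rik* (chr11:75172560-75177633), the host transcript of 2 microRNAs that are induced by the factor CREB, stood at 73.0, 46.4, 34.2 and 79.9 CPM against 24.2 ± 5.69 CPM, with the groups overlapping. *Fos*, *Nr4a1* and *Npas4* were also higher than other neurons in 4 of 4 libraries, with means of 12.2, 27.7 and 14.5 CPM against 6.01, 15.1 and 7.95 CPM. Of the 10 immediate early genes that the study scored, 4 were above other neurons in 4 of 4 libraries (*Fos*, *Fosl2*, *Nr4a1* and *1700016P03Rik*). Another 4 were below them in 4 of 4 (*Btg1*, *Jun*, *Nr4a3* and *Gem*). Of all genes found in at least 20% of nuclei 16.2% were above in 4 of 4. *Fos*, in 8.70% of nuclei, and *Fosl2*, in 4.97%, fall outside that set, and no share was computed for genes below. The counts thus have no matching share over all genes. *Nr4a3* and *Gem* rested on 1 and 3 UMIs. *Fosl2* rested on 1, 1, 1 and 5 UMIs. Of 22 other listed activity genes, which include *Egr1*, *Egr3* and *Npas4*, 6 were found in at least 10% of nuclei, 2 of them at least 2-fold higher and 0 lower. After thinning to 2000 UMIs per nucleus *Egr1* was found in 6.83% of nuclei of the cluster and 1.20% of other neurons, and *Egr3* in 3.73% and 0.0983%.

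The microRNAs of that transcript are shown because they share their seed, bases 2 to 8, which is in capitals. The sequences are mature forms from RefSeq on GRCm38.p6, plus strand, 5′ to 3′, at chr11:75173723-75173744 and chr11:75173443-75173464.
mmu-miR-132-3p: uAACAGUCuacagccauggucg
mmu-miR-212-3p: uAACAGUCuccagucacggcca
The libraries count the host transcript and not these mature forms, whose levels were not measured.

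The study scored 10 immediate early genes (IEGs) between the groups, and 7 of them passed the detection minimum of 5% of nuclei in the cluster. *Fos* gave 4, 3, 3 and 15 UMIs in control replicates 1 and 2 and AgRP-Gq;POMC-Gi replicates 1 and 2, that is 8.85, 15.5, 6.85 and 17.6 CPM, and its log2 fold change was 0.34 (SE 0.68; edgeR, adjusted p = 0.997). *Homer1*, a scaffold gene of the synapse, stood at 66.4, 119, 50.2 and 101 CPM, and *Nr4a1*, a nuclear receptor, at 24.3, 41.2, 13.7 and 31.7 CPM. In all 3 genes the groups overlapped.

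The log2 fold changes were -0.05 (SE 0.34) for *Homer1*, -0.23 (SE 0.48) for *Nr4a1*, -0.02 (SE 0.36) for *1700016P03Rik* and 0.58 (SE 0.62) for *Junb*. Signs were not stable with a library left out in turn. *Fos* then lay at -0.59 to 0.68, *Homer1* at -0.70 to 0.30, *Nr4a1* at -1.05 to 0.08 and *1700016P03Rik* at -0.83 to 0.44. *Btg1*, an antiproliferative gene, stood at 4.42, 10.3, 6.85 and 16.5 CPM (1.04, SE 0.80), and its log2 fold change lay between 0.18, without AgRP-Gq;POMC-Gi replicate 2, and 1.52, without control replicate 2. *Jun* was the one IEG whose groups did not overlap, at 8.85 and 5.15 CPM in control and 4.57 and 4.70 CPM under AgRP-Gq;POMC-Gi (-0.67, SE 0.91), on 11 UMIs in all. Without control replicate 1 the log2 fold changes of *Jun* and *Junb* were -0.11 and 0.09. None of the 7 was called by edgeR, and none of the 6 for which a negative binomial mixed model over nuclei converged (all but *Btg1*) was called by that model. *Fosl2* (8 UMIs), *Nr4a3* (1 UMI) and *Gem* (3 UMIs) were under the detection minimum and not tested by edgeR. The mixed model converged for *Fosl2* alone of these (log2 fold change 0.59, SE 1.18) and did not call it.

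**Figure D4:**
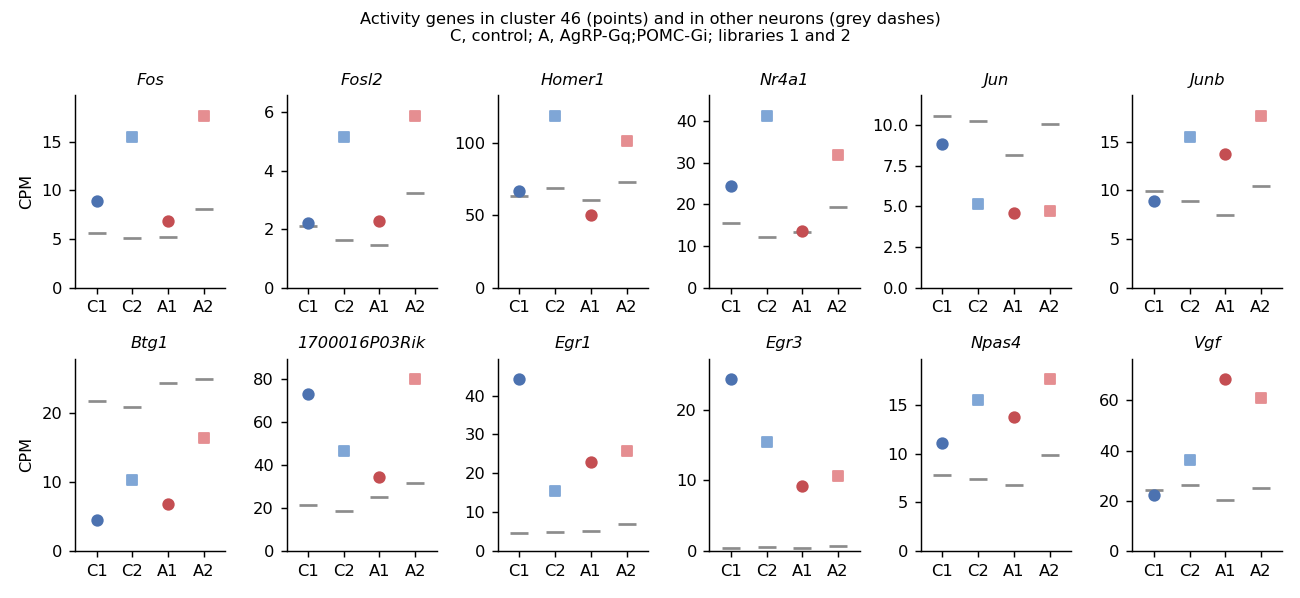
CPM (y axis, linear from 0) of 8 IEGs of the study and of *Egr1*, *Egr3*, *Npas4* and *Vgf* in cluster 46 (points, 1 per library) and in other neurons of the same library (grey dashes). *Egr1*, at 15.5 to 44.2 CPM, and *Egr3*, at 9.13 to 24.3 CPM, lay above the dashes in all 4 libraries.

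Across all genes the groups were not told apart in the cluster. Of 12155 genes tested with edgeR, 0 (0.0%) were called at an adjusted p under 0.05, with 475 (3.91%) at an unadjusted p under 0.05. DESeq2 also called 0, with 33 at an unadjusted p under 0.05. Both AgRP-Gq;POMC-Gi libraries were above both control libraries in 16.8% of genes and below them in 16.6%. Of the 20 leading genes 0 were called, with 6 above and 1 below in this sense and a median log2 fold change of 0.16, against 0.02 over all genes. *Gad2*, *Slc6a5* and *Rorb* were among the genes not called. Of the listed genes of matrix and proteoglycans, 46 were tested and 0 called, with 6 above, 11 below and a median of -0.06. With 17 nuclei in the smallest library a change could be missed, as 71% of simulated 4-fold and 27% of simulated 2-fold changes were called at this size. In that simulation 10 unchanged genes were called as well. It changed 100 genes at each size together and held no difference of sex, so it does not cover a change in few genes.

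The 5 genes with the lowest p in each direction are given as values, since none was called (edgeR, adjusted p = 0.997 for each). The higher ones were *Ncald*, *Malat1*, *Eif2s3y*, *Igf1* and *Gabra5*. *Ncald*, which encodes the calcium sensor neurocalcin δ, stood at 15.5 and 41.2 CPM in control and 84.5 and 78.8 CPM under AgRP-Gq;POMC-Gi (log2 fold change 1.79, SE 0.39). It was found in 6 of 34 and 7 of 17 nuclei in control and 19 of 39 and 20 of 71 under AgRP-Gq;POMC-Gi. These shares overlapped between groups, and 1 nucleus held 23 of its 119 UMIs. *Gabra5*, a GABA-A receptor subunit, stood at 53.1 and 56.7 against 107 and 110 CPM (1.03, SE 0.27), with libraries of a group close together. *Igf1*, a growth factor gene, rested on 4, 1, 11 and 36 UMIs in the 4 libraries (2.20, SE 0.58). *Malat1*, a nuclear noncoding RNA, had a log2 fold change of 0.30 (SE 0.07), beside 0.34 in other neurons. *Eif2s3y* (2.37, SE 0.58) is Y-linked, and its values of 4.42, 36.1, 41.1 and 95.2 CPM went with those of *Uty* given above. Its log2 fold change moved to 1.05 when control replicate 1 was left out, to 4.01 when control replicate 2 was, and to 1.54 when AgRP-Gq;POMC-Gi replicate 2 was.

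The lower ones were *Rnf180*, *Ntng1*, *Zfhx3*, *Trf* and *Col25a1*. *Rnf180*, a ubiquitin ligase gene found in 72.7% of nuclei, stood at 243 and 211 CPM in control and 126 and 115 CPM under AgRP-Gq;POMC-Gi (log2 fold change -0.92, SE 0.21). *Ntng1*, which encodes the adhesion molecule netrin G1, stood at 31.0 and 20.6 against 2.28 and 3.53 CPM (-3.03, SE 0.69), on 22 UMIs in 11 nuclei. *Zfhx3* had a log2 fold change of -1.39 (SE 0.33), and 33 of its 48 UMIs in control replicate 1 came from 1 nucleus. Without that library it was -0.84. *Trf*, the transferrin gene, which oligodendrocytes make in bulk, stood at 70.8, 30.9, 9.13 and 18.8 CPM (-1.86, SE 0.45), and the summed oligodendrocyte markers at 246, 216, 167 and 150 CPM moved the same way, whose part in the difference was not tested. *Col25a1* rested on 1 nucleus with 44 of its 76 UMIs, in control replicate 1. Without that library its log2 fold change was 0.77 in place of -2.15.

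**Figure D5:**
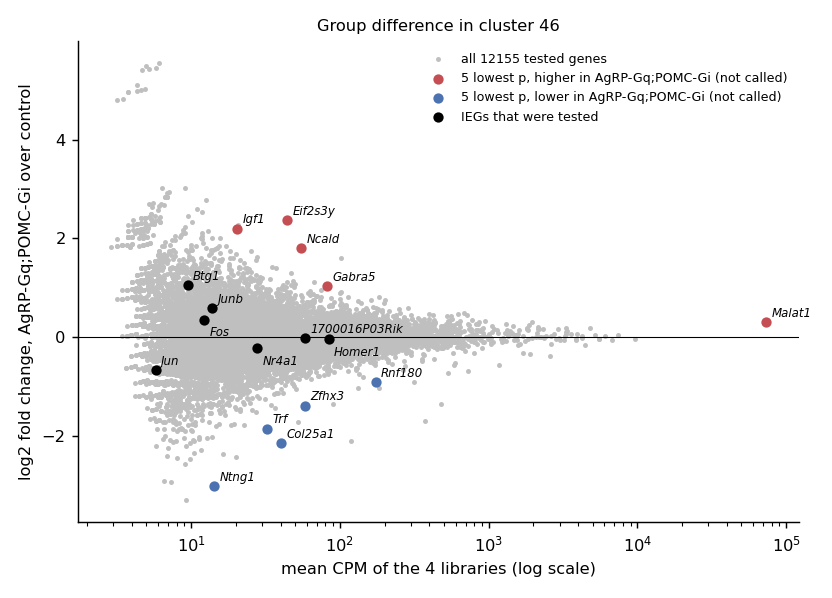
Log2 fold change of AgRP-Gq;POMC-Gi over control (y axis) against mean CPM (x axis, log scale) for the 12155 tested genes of cluster 46, with the 10 genes of lowest p and the 7 tested IEGs named. None of the points was called at an adjusted p under 0.05.

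In the other neurons of the same libraries 0 of 12101 genes (0.0%) were called by edgeR, with 668 (5.52%) at an unadjusted p under 0.05. This count depended on the model, as DESeq2 called 12, edgeR with a replicate block 207 and with a crossed block 88. The labels do not say that replicate numbers pair libraries. The difference of the group effect between the cluster and other neurons was tested in 1 model over both, with the library as a block, and 0 of 12155 genes (0.0%) were called by edgeR, with 517 (4.25%) at an unadjusted p under 0.05. DESeq2 also called 0, with 117 at an unadjusted p under 0.05. The 5 genes with the lowest p were *Ntng1*, *Rnf180*, *Ncald*, *Col25a1* and *Schip1*, with adjusted p of 0.167 to 0.212 in edgeR. *Ntng1* differed by -3.31 (SE 0.64), *Rnf180* by -1.06 (SE 0.21) and *Ncald* by 1.81 (SE 0.38) on the log2 scale. In other neurons their own log2 fold changes were 0.18, 0.13 and 0.01. *Schip1*, a partner of the cytoskeletal linker schwannomin, stood at 723 and 608 CPM in control and 463 and 335 CPM under AgRP-Gq;POMC-Gi in the cluster.

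Without control replicate 2, which held the fewest nuclei, 37 genes were called in the cluster, 11 higher and 26 lower, and 38 in the test of the difference. Without AgRP-Gq;POMC-Gi replicate 2, 3 genes were called in the cluster, and without either of the other libraries 0. In the test of the difference the counts were 2, 18 and 2 without control replicate 1 and AgRP-Gq;POMC-Gi replicates 1 and 2. In each such fit the lone library of a group was assumed to vary like the other group. *Ncald* (edgeR, adjusted p = 0.000538), *Eif2s3y* (1.04e-06), *Rnf180* (0.0154), *Ntng1* (0.0153), *Zfhx3* (0.0022), *Trf* (0.0022) and *Col25a1* (9.44e-09) were among the 37. *Malat1* was called without AgRP-Gq;POMC-Gi replicate 2 (edgeR, adjusted p = 2.34e-07). With no filter on genes, *Ncald*, *Malat1*, *Eif2s3y*, *Ntng1*, *Zfhx3*, *Trf* and *Col25a1* were called as well (edgeR, adjusted p = 4.38e-10 to 0.0463). With a crossed replicate block, added after seeing the data, *Ncald*, *Malat1*, *Eif2s3y* and *Col25a1* were called (edgeR, adjusted p = 1.41e-05 to 0.00737). Every gene named here but *Col25a1* kept its direction over every alternative run. The log2 fold changes in the cluster were 1.00 to 2.40 for *Ncald*, -3.36 to -2.62 for *Ntng1*, -1.65 to -0.84 for *Zfhx3* and -2.54 to -0.98 for *Trf*. These genes were chosen for the lowest p in these same libraries. Their calls in altered fits and their kept direction are therefore no separate support. The adjusted p of each reached 1.00 with DESeq2.

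The nuclei of the cluster were not all alike. Over the 6307 genes with at least 50 UMIs the share of nuclei with a UMI lay a median of 1.80 percentage points under that expected if UMIs were spread by depth alone. The glutamate receptor gene *Grm8* lay far lower, at 21.7% of nuclei against 69.2% expected, as did *Grik1*, a kainate receptor gene, at 36.0% against 83.5%, and *Meis2*, at 16.1% against 61.7%. The *Meis2* UMIs fell in 26 nuclei, of which 21 also held *Grik1* and 12 also held *Grm8*. These 26 nuclei came from all 4 libraries (7, 4, 10 and 5). *Rorb* itself was missing from 5 nuclei, 2 of control replicate 1 and 3 of AgRP-Gq;POMC-Gi replicate 1, and 1 of these held the 44 *Col25a1* UMIs.

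Other clusters were ranked by likeness, as Pearson's r over 12115 genes of log2 CPM, with 10 CPM added, from UMIs pooled over the 4 libraries. All clusters come from the same libraries, and a library with more UMIs of a cluster weighs more. Clusters 125, named after *Otof* and *Stac*, 162, after *Chrdl1* and *Kcnh8*, and 55, after *Rab38* and *Ano1*, came first with r of 0.946 to 0.951, where the median cluster had 0.901. Without AgRP-Gq;POMC-Gi replicate 2, which gave 39 of the 74 nuclei of cluster 125, clusters 87, 55 and 62 came first, so the order of the nearest clusters was not settled. *Rorb* was as high in cluster 125, at 1075 CPM, and low in clusters 162 and 55, at 16.9 and 22.5 CPM. *Col18a1* stood at 130, 26.5 and 5.84 CPM in clusters 125, 162 and 55, *Gpc4* at 6.79, 1.82 and 0 CPM, and *Sst* at 4.03, 2.82 and 131 CPM. *Egr3* stood at 6.72, 11.4 and 0 CPM in the same order and *Egr1* at 8.14, 40.4 and 1.26 CPM. *1700016P03Rik* stood at 26.5, 90.6 and 14.6 CPM, so higher levels of these activity genes were shared with cluster 162. Cluster 125 was thus the one of the 3 in which *Rorb*, *Col18a1* and *Gpc3* were highest, and its values of *Sst*, *Gpc4* and *Ntsr2*, the last at 6.77 CPM, were lower. Its levels of *Gpc5*, at 5194 CPM, *Hs3st3a1*, at 71.6 CPM, and *Hs3st3b1*, at 79.1 CPM, were above those of cluster 46. *Ntsr2* stood at 66.2 CPM in cluster 162.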

How the data were processed

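Nuclei of 4 libraries (10x Genomics 3′ kit) were analysed. Per the submitters' notes and the study's methods, the authors mapped reads to GRCm38 with Cell Ranger 7.0.0, which counts UMIs, and filtered and clustered nuclei with Seurat 4.3.0 and scVI, leaving IEGs out of the clustering genes. The deposited matrices hold whole UMI counts per gene and nucleus, which were used as deposited. The table the authors deposited also gives the percent of mitochondrial UMIs per barcode, which they had used for filtering. Their annotation was used for clusters and its doublet removal was kept. Totals computed from the counts equalled those in the authors' table for 44303 of 44303 barcodes. No column of another sample was present (0).

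UMIs were summed per library and cluster. Groups were compared with edgeR 4.0.16 (quasi-likelihood, R 4.3.3) and TMM factors (none for numbers of nuclei), over genes detected in 5% or more of nuclei, with Benjamini-Hochberg adjustment over all features and n = 2 libraries per group. Alternatives were DESeq2 1.42.0, glmmTMB 1.1.9 for IEGs (nebula, which the authors used, was not used here), other filters and scalings, a replicate block and each library left out. On simulated data made from these libraries, with 100 genes changed 2-fold and 100 changed 4-fold, edgeR called 71% of 4-fold and 27% of 2-fold changes in the cluster and 52% and 11% in the test of the difference. Intervals cover counting error only.

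Named genes were *Col18a1* and *Gpc3*, the 20 leading genes, list members found in at least 10% of nuclei with the largest ratios or of known relevance, all IEGs, the 5 genes per direction with the lowest p and the 5 of the test of the difference. *Penk*, *Npy1r*, *Mc4r*, *Lepr*, *Dbh*, *Npas4*, *Vgf* and the genes of uneven spread over nuclei were added after their values were seen. The members and lists were chosen with earlier results of these data known. Genes were placed by GENCODE M21. Genes on opposite strands, such as *A630012P03Rik* and *Gpc3*, were told apart only as far as the strand-specific counting of the kit allows. Python 3.11.15, numpy 2.4.6, pandas 2.3.3, scipy 1.17.1 and matplotlib 3.10.9 were used. Some genes of the lists are not reported here.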

Additional observations from a re-analysis of the deposited data

How the results depend on the processing

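The group difference in cluster 46, with 0 genes called, gave 1 call with a replicate block, 19 with no filter on genes and 0 to 37 when libraries were left out in turn, and 0 with DESeq2, without TMM factors and with edgeR's filter. In other neurons 0 calls became 12 with DESeq2, 207 with the replicate block and 1 to 2416 with a library left out. The difference of the group effect gave 15 calls with no filter and 2 to 38 with a library left out. The labels do not say that the replicate numbers pair libraries, and 2 pairs are too few to decide it from the data. Deviations of same-numbered libraries correlated at 0.04 in the cluster, 0.18 in other neurons and -0.40 for numbers of nuclei. A crossed pairing, added after seeing the data, gave 11 calls in the cluster and 88 in other neurons. The log2 fold change of the cluster's abundance was 0.62 with either block, 1.10 against all kept nuclei and 0.09 to 1.27 with a library left out, never called. No IEG was called under any alternative. *Fos* was at -0.0112 with the block and -0.59 to 0.68 with a library left out, *1700016P03Rik* at 0.0125 with no filter and -0.83 to 0.44, *Homer1* at -0.70 to 0.30 and *Nr4a1* at -1.05 to 0.0822. *Col25a1* was at -2.70 to 0.77 in the cluster and -2.73 to 0.63 in the test of the difference. With a pseudocount of 1 CPM 11 of the 20 leading genes stayed in the list, against 18 to 20 with a library left out. Of the 3 most like clusters 1 to 3 stayed. Control replicate 2 held the fewest nuclei of the cluster (17), and its values are the least precise by counting error.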
